A study of Arabidopsis thaliana with 6 samples.

Results

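The 10 genes described here encode enzymes and regulators of flavonoid synthesis in Arabidopsis, and their transcripts were followed by RNA-seq in *prp40c-1* and its wild type, where *prp40c-1* is a mutant of the splicing-related gene *PRP40C*. They were chosen by locus from the 33602 genes of the count table. No value served as a criterion, but earlier results of these data were known when the choice was made. The chalcone-to-dihydroflavonol steps are *CHS* (AT5G13930), *CHI* (AT3G55120), *F3H* (AT3G51240) and *F3'H* (AT5G07990). The flavonol branch is *FLS1* (AT5G08640) and *UGT89C1* (AT1G06000), the anthocyanin branch is *DFR* (AT5G42800) and *LDOX* (AT4G22880), and the regulators are *MYB12* (AT2G47460) and *MYB111* (AT5G49330). All 10 had counts in all 6 libraries and passed the filter for testing in both genotypes.

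Flavonoids are made from the phenylpropanoid p-coumaroyl-CoA. Chalcone synthase (CHS) makes the first flavonoid skeleton, CHI closes its ring, and F3H and F3'H hydroxylate it to dihydroflavonols. At that point FLS1 takes dihydroflavonols to flavonols, which glycosyltransferases such as UGT89C1 decorate with sugars, while DFR and LDOX take dihydroflavonols towards anthocyanins and proanthocyanidins. In Arabidopsis seedlings MYB12 and MYB111 are known as R2R3-MYB activators of the flavonol genes, and flavonols act as UV screens and as modulators of auxin transport.

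Wild type was Col-0, and the mutant carried a homozygous T-DNA insertion in *PRP40C* (AT3G19840), which encodes a homologue of the yeast U1 snRNP-associated protein Prp40. Whole seedlings of both genotypes, given in the labels as 10 to 14 days old, were grown at 22 °C under continuous white light of 50 µmol m-2 s-1, and 3 biological samples of each were sequenced. A single insertion allele was profiled, so that effects of the loss of *PRP40C* and of other changes in that line cannot be told apart. *PRP40C* itself had 24.6, 28.1 and 22.6 CPM in wild type and 11.8, 14.0 and 12.7 CPM in the mutant, where CPM are counts scaled to a common library size with TMM factors. The log2 fold change was -0.97 ± 0.106 (SE). Its counts cover the whole locus and do not show how much RNA spanned the insertion.

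The libraries held 34200225 to 40919516 counts on genes. The 4 leaf markers summed to 43000 to 44580 CPM in wild type and to 42740 to 46240 CPM in the mutant, and the 4 root markers to 2277 to 2444 CPM and to 2412 to 2711 CPM. Seed and flower markers summed to at most 1.21 CPM in every library, and 2 of the 4 seed markers were at 0 throughout. Of the 10 markers with enough counts to be tested none was called, although the leaf marker *RCA* (Rubisco activase) passed the FDR threshold below the fold threshold. In whole seedlings, fewer cells of a type and less RNA per cell cannot be told apart.

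The 250 bases upstream of *UGT89C1*, the gene with a change in expression, are shown because they hold one of the motifs searched. They lie on the minus strand at chr1:1821895-1822144 (TAIR10), were read from the RefSeq sequence of TAIR10.1, and are written 5′ to 3′ with the match in capitals.
UGT89C1: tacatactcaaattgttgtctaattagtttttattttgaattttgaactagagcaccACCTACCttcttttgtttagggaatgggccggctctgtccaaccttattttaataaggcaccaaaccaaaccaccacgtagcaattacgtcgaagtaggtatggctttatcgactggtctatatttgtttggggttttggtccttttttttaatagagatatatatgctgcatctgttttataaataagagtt
Both strands were searched for 3 AC elements, known as sites of R2R3-MYB factors, of which the first reads ACCTACC, the second variant reads ACCAACC, and the remaining variant reads ACCTAAC. The G-box, a site of bZIP and bHLH factors with the letters CACGTG, was searched as well. Upstream of 4 members an AC element was found, and the sites are set side by side below, with up to 11 bases on either side and the match in capitals.
UGT89C1 (chr1:1822070-1822098, minus strand): actagagcaccACCTACCttcttttgttt
CHI (chr3:20431499-20431527, minus strand): taactattgctACCTACCcttctctcttc
CHS (chr5:4488607-4488635, plus strand): ccgtccatctaACCTACCacactctcatc
DFR (chr5:17166016-17166044, minus strand): cgtgcttctccGGTTGGTactcacgtgac
The matches began at positions -193, -46, -70 and -115 from the gene start of the files, and the one of *DFR* read ACCAACC on the opposite strand. A G-box was found once upstream of *MYB12*, *F3H* and *CHI* and at 2 positions upstream of *DFR*, on either side of its AC element without overlapping it. Of 32834 promoter windows of this length, 6.57% held at least 1 AC element, 1.18% held ACCTACC and 6.77% held a G-box. None of the 4 motifs was found in these windows of *F3'H*, *FLS1*, *LDOX* and *MYB111*. These matches are descriptions of letters and not of bound sites.

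In expression, *UGT89C1* was lower in *prp40c-1* than in wild type, at 60.6% of the wild-type mean, and it was the only one of the 10 genes called. Of the other 9 genes, 8 had mutant means between 69.1% and 94.0% of wild type and *DFR* had 119%, and none of these differences passed the threshold. A gene was called at an FDR below 0.05 by edgeR's quasi-likelihood test over all 22182 genes tested, with a log2 fold change beyond 0.58. By that rule 3.67% of all genes tested were called, 0.852% as lower and 2.81% as higher in the mutant, beside 1 and 0 of the 10 genes here. The median log2 fold change was -0.29 over the 10 genes and -0.000935 over all genes tested. A log2 fold change below 0 was found for 9 of the 10 genes and for 50.2% of all genes. In the adjoining lists described below it was found for 7 of 8 phenylpropanoid entry genes and 6 of 7 other flavonol genes. It was also found for 9 of 11 tested anthocyanin and proanthocyanidin genes, 8 of 9 sinapate and lignin genes and 10 of 20 tested regulators. Most of the 10 genes were lowest in the same libraries, so their signs are not separate observations.

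**Figure D1:**
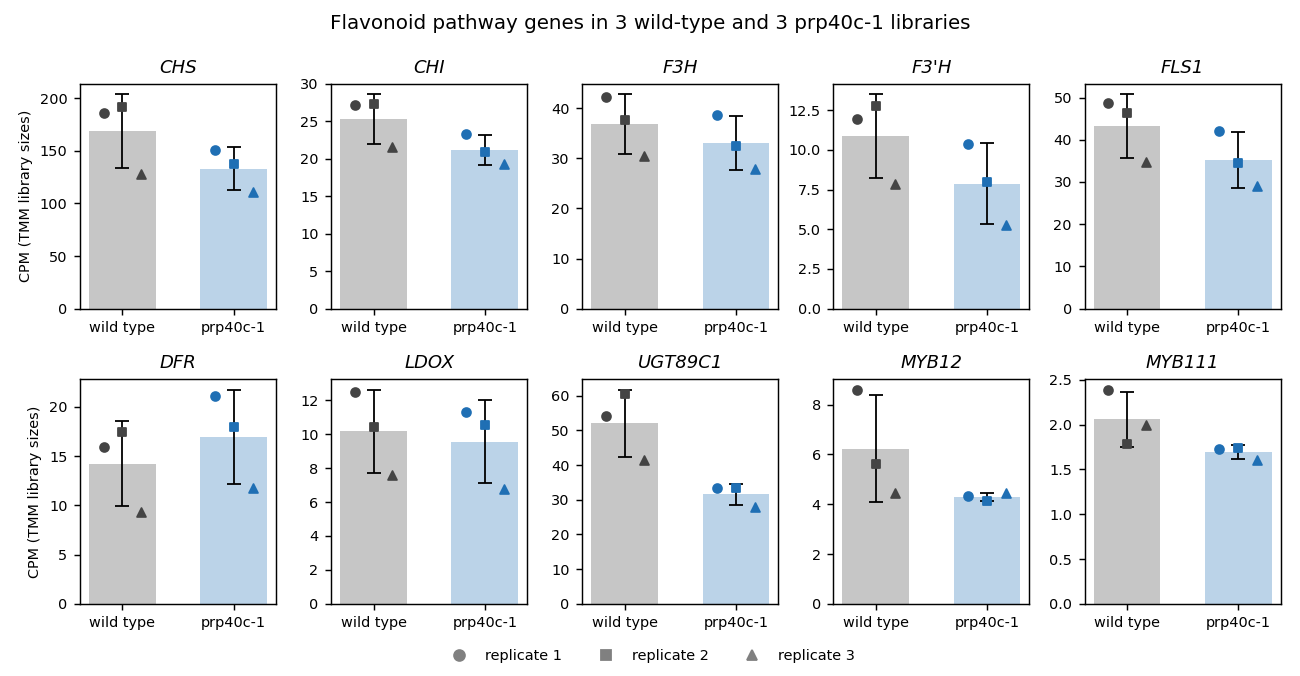
CPM of the 10 genes (vertical axis, linear from 0) in wild type (gray) and *prp40c-1* (blue), with the mean as a bar, the SD as an error line (n = 3) and each library as a point. For *UGT89C1* the mutant libraries lie at 28.0 to 33.3 CPM, all below the wild-type libraries at 41.6 to 60.6 CPM, while for 8 of the other genes the genotypes overlap.

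*UGT89C1* encodes the flavonol 7-O-rhamnosyltransferase, which adds rhamnose to flavonols. Its wild-type libraries had 54.1, 60.6 and 41.6 CPM, and its mutant libraries had 33.3, 33.3 and 28.0 CPM. All 3 mutant libraries were below all 3 wild-type libraries, which was the case for 2 of the 10 genes, *UGT89C1* and *MYB111*, and for 13.5% of all genes tested. The log2 fold change was -0.72 ± 0.115 (SE) with an FDR of 0.000665, and over all alternative settings and left-out libraries it lay between -0.86 and -0.60 and was called each time. *UGT89C1* lies on chromosome 1 from 1820308 to 1821894 and has no intron, and it shares 918 bases with AT1G06002, a locus on the opposite strand. AT1G06002 had 1501, 1656 and 1218 counts in wild type and 871, 953 and 708 counts in the mutant, with a log2 fold change of -0.69 and an FDR of 0.00138 by the same test. The counting did not separate the strands at another such pair, *F3H* and AT3G51238, where the counts were the same in 5 of 6 libraries and differed by 1 in the sixth. Reads from *UGT89C1* and its opposite locus can therefore not be told apart in their shared stretch. The counts of *UGT89C1* less those of AT1G06002 come close to the reads of the other 669 bases of *UGT89C1* if shared reads were counted for both loci. They were 581, 651 and 467 in wild type and 398, 270 and 238 in the mutant. Scaled to CPM they came to 14.6 ± 2.83 (SD, n = 3) in wild type and 8.29 ± 1.88 (SD, n = 3) in the mutant, 56.8% of wild type, with no overlap (exact permutation test, two-sided, p = 0.1, the smallest p with 3 against 3). This difference of counts was set up after the values had been seen.

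The steps that lead to dihydroflavonols were not called. *CHS* had 186, 192 and 128 CPM in wild type and 151, 137 and 111 CPM in the mutant, and the log2 fold change was -0.34 ± 0.130 (SE, FDR 0.109). Replicate 3 of wild type was below mutant replicates 1 and 2, so the genotypes overlapped. *CHI* had 27.1, 27.3 and 21.5 CPM against 23.3, 20.9 and 19.3 CPM, a log2 fold change of -0.25 ± 0.108 (FDR 0.152). *F3H*, a dioxygenase that hydroxylates flavanones, had 42.3, 37.7 and 30.5 CPM against 38.7, 32.5 and 28.0 CPM, and its log2 fold change of -0.15 was close to its SE of 0.122. *F3'H*, a cytochrome P450 that adds the hydroxyl group distinguishing quercetin from kaempferol, had 11.9, 12.8 and 7.85 CPM against 10.4, 7.99 and 5.28 CPM. Its log2 fold change was -0.46 ± 0.212 with an FDR of 0.197, and for *CHS*, *CHI* and *F3'H* wild-type replicate 3 was the one wild-type library within the mutant range, while for *F3H* replicate 2 was there as well.

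At the branch point the 2 outlets differed in sign without either being called. *FLS1*, flavonol synthase, had 48.8, 46.3 and 34.7 CPM in wild type and 42.1, 34.4 and 29.1 CPM in the mutant, a log2 fold change of -0.29 ± 0.130 (FDR 0.174). *DFR*, dihydroflavonol 4-reductase, had 15.9, 17.5 and 9.33 CPM in wild type and 21.2, 18.01 and 11.7 CPM in the mutant. Its 2 highest libraries were mutant ones and its lowest was wild-type replicate 3, with a log2 fold change of 0.26 ± 0.208 (FDR 0.494). With 1 library left out it ranged from 0.026 without wild-type replicate 3 and 0.066 without mutant replicate 1 to 0.46 without mutant replicate 3. *LDOX*, the dioxygenase that follows *DFR*, had 12.5, 10.4 and 7.58 CPM against 11.3, 10.6 and 6.76 CPM, and its log2 fold change of -0.08 ± 0.192 turned to 0.09 without wild-type replicate 1 and to 0.11 without mutant replicate 3.

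The regulators were the least counted of the 10. *MYB12* had 8.60, 5.63 and 4.44 CPM in wild type and 4.33, 4.12 and 4.45 CPM in the mutant. The wild-type libraries were spread over 1.94-fold and the mutant libraries over 1.08-fold, and the log2 fold change was -0.53 ± 0.210 (FDR 0.123). *MYB111* had 2.39, 1.79 and 2.00 CPM against 1.73, 1.74 and 1.60 CPM, from 54 to 92 counts a library, with a log2 fold change of -0.28 ± 0.258 (FDR 0.552). Its genotypes did not overlap, and the lowest wild-type library (1.79 CPM) was next to the highest mutant library (1.74 CPM).

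The number called depended on single libraries. Without wild-type replicate 3, *F3'H* (log2 fold change -0.64, FDR 0.0478) and *MYB12* (-0.73, FDR 0.0237) were called beside *UGT89C1*, 3 of 10 in all where 3.82% of all genes tested were called, and 6 of the 10 passed the FDR threshold alone, as did 10.7% of all genes. Without mutant replicate 1, *F3'H* was called (-0.71, FDR 0.0441), 2 of 10 in all where 4.14% of all genes were called. Leaving out any of the other 4 libraries left *UGT89C1* as the only gene called.

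The plot of fold changes sets the 10 genes beside those that were tested among 60 genes of the adjoining pathways and their regulators.

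**Figure D2:**
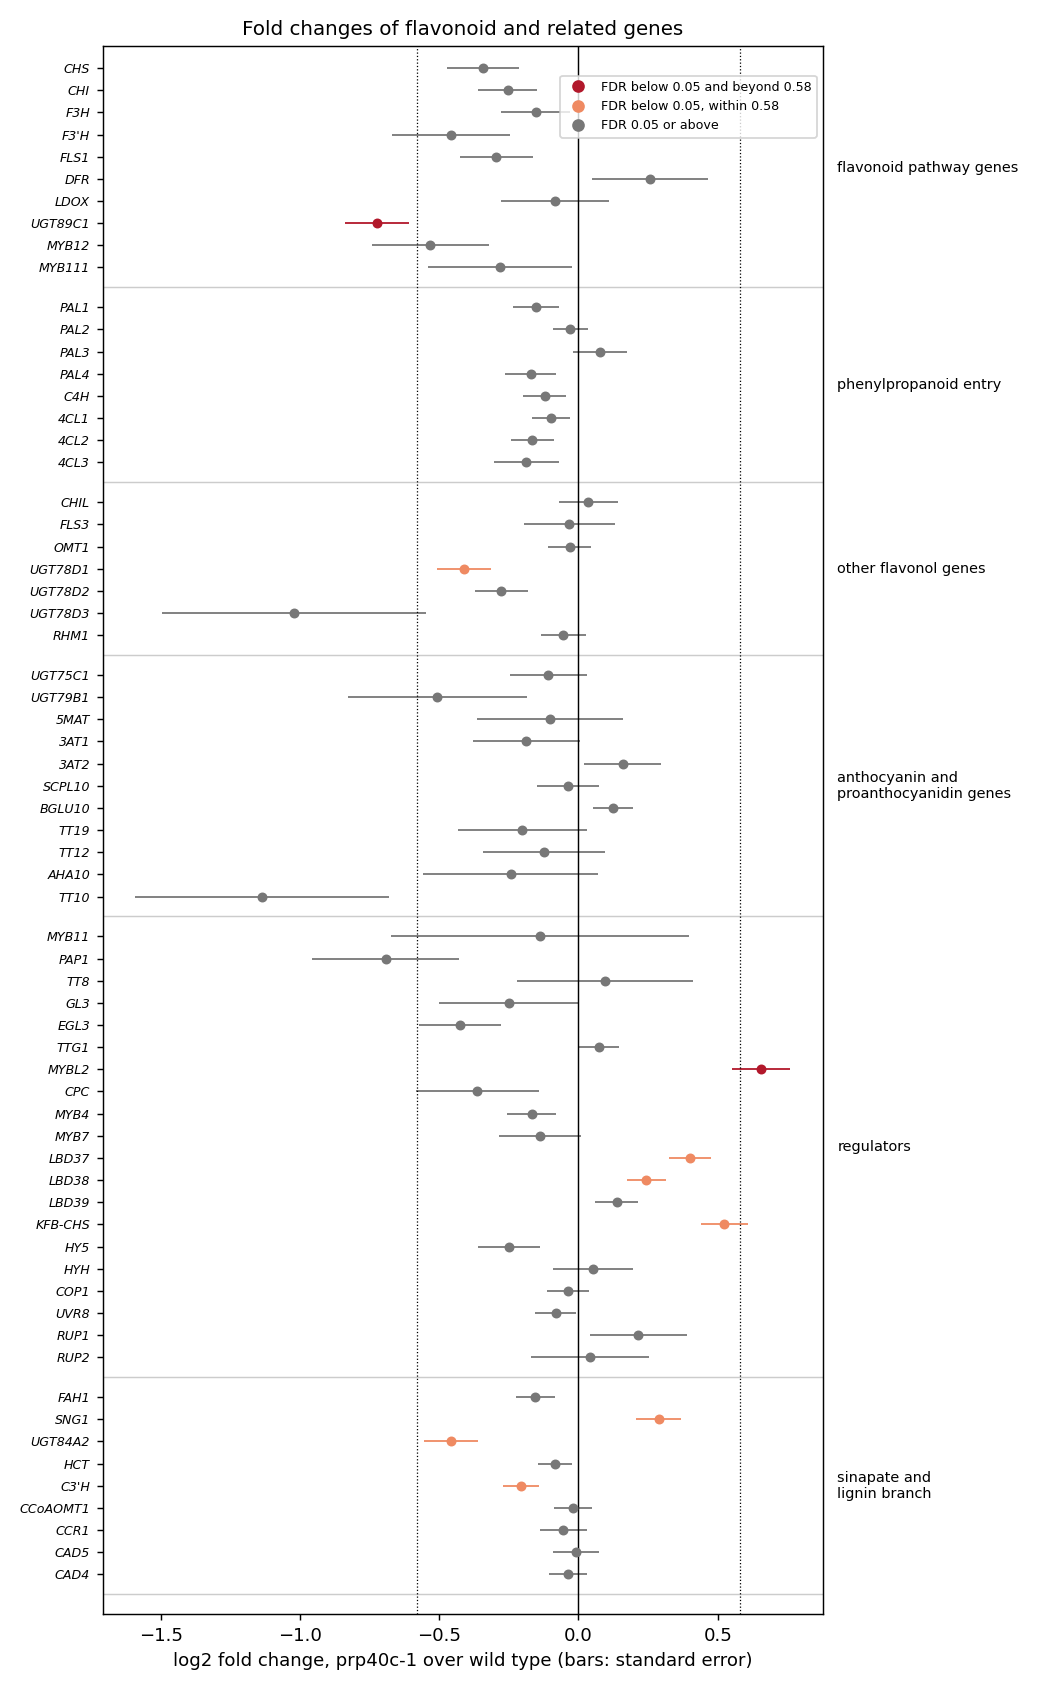
Log2 fold change of *prp40c-1* over wild type (horizontal axis, with the SE as bars, n = 3 per genotype) for the tested genes of 6 lists, with dotted lines at 0.58 on either side of 0. *UGT89C1* at -0.72 and *MYBL2* at 0.65 are the 2 genes called, in dark red.

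Upstream of *CHS*, none of the 8 genes of the phenylpropanoid entry (phenylalanine ammonia-lyases, cinnamate 4-hydroxylase and 4-coumarate:CoA ligases) was called or passed the FDR threshold, and their median log2 fold change was -0.14. *C4H*, the most abundant, was at 91.9% of its wild-type mean (FDR 0.370), *PAL1* at 90.0% (FDR 0.275) and *PAL2* at 97.9% (FDR 0.823). Among 7 other flavonol genes none was called and the median was -0.05. *UGT78D1*, the flavonol 3-O-rhamnosyltransferase, was singled out after its value was seen, as the one gene of this list that passed the FDR threshold. It had 34.8, 36.6 and 36.3 CPM in wild type and 30.3, 27.8 and 22.8 CPM in the mutant, with no overlap, and a log2 fold change of -0.41 ± 0.0973 (FDR 0.0124) that stayed within the fold threshold, and without mutant replicate 3 the FDR was 0.070. *OMT1*, a methyltransferase, *RHM1*, which makes UDP-rhamnose, and *CHIL*, a chalcone isomerase-like protein, had 97.8%, 96.3% and 102% of their wild-type means, with FDRs of 0.848, 0.743 and 0.883.

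Of 12 genes specific to anthocyanins and proanthocyanidins, 11 were tested, none was called, and the median log2 fold change was -0.12. The most abundant, *BGLU10*, *SCPL10* and *UGT75C1*, which decorate anthocyanins, had 109%, 97.4% and 92.6% of their wild-type means (FDRs 0.310, 0.879 and 0.686). *BAN*, the anthocyanidin reductase of the seed coat, had 0 to 3 counts in each library and was not tested.

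Among 24 regulators, 20 were tested and 1 was called, *MYBL2*, an R3-MYB repressor of anthocyanin synthesis. *MYBL2* rose from 50.9, 52.3 and 64.1 CPM in wild type to 74.6, 87.6 and 101 CPM in *prp40c-1*. Every mutant library was above every wild-type library, as held for 15.5% of all genes tested, and the log2 fold change was 0.65 ± 0.105 (SE) with an FDR of 0.000685. Without mutant replicate 3 it was 0.54, within the fold threshold, with an FDR of 0.00545. *KFB-CHS*, an F-box protein that targets CHS protein for degradation, had 201, 234 and 258 CPM in wild type and 326, 314 and 356 CPM in the mutant. Its log2 fold change of 0.52 ± 0.0853 passed the FDR threshold (0.000777) and not the fold threshold, and without wild-type replicate 3 it was called, at 0.61. *LBD37* and *LBD38*, known as repressors of anthocyanin genes under nitrogen supply, passed the FDR threshold at 132% and 118% of their wild-type means (FDRs 0.0024 and 0.0363), *LBD38* being named after its value was seen. *LBD38* missed the FDR threshold in 4 of the 6 fits with 1 library left out, those without wild-type replicate 1 or 2 or mutant replicate 2 or 3, with FDRs up to 0.169. *UVR8*, the UV-B receptor, had 94.5% of its wild-type mean (FDR 0.547). Without the fold threshold 7.05% of all genes passed as higher and 4.15% as lower, beside 4 and 0 of the 20 tested regulators. As a list the regulators did not move to one side, with a median log2 fold change of 0.0019 and 10 of the 20 below 0. The genotypes did not overlap for 5 regulators that were lower and 4 that were higher in the mutant, beside 13.5% and 15.5% of all genes. The 4 higher ones were *MYBL2*, *KFB-CHS*, *LBD37* and *LBD38*. The 5 lower ones, named after their values were seen, were *PAP1*, *EGL3*, *CPC*, *HY5* and *MYB4*. They had 61.6%, 74.5%, 77.8%, 84.1% and 89.0% of their wild-type means, and none of them passed the FDR threshold.

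In the 9 genes of the sinapate and lignin branch, which competes for p-coumaroyl-CoA, none was called and 3 passed the FDR threshold alone, as did 11.2% of all genes tested. *SNG1*, a sinapoyltransferase, was at 122% of wild type (FDR 0.0314), *UGT84A2*, the sinapate glucosyltransferase, at 72.8% (FDR 0.00622) and *C3'H*, a hydroxylase of lignin synthesis, at 86.7% (FDR 0.0486), *UGT84A2* and *C3'H* being named after their values were seen. With 1 library left out *UGT84A2* passed in all 6 fits, *SNG1* missed the threshold in 3 of 6 (wild-type replicate 2, mutant replicates 2 and 3, FDRs up to 0.159) and *C3'H* in 5 of 6, all but the fit without wild-type replicate 3 (FDRs up to 0.201). *C3'H* also missed it with the replicate block (FDR 0.0659) and without the filter on low counts (FDR 0.0527). *CCoAOMT1* and *HCT*, enzymes of lignin synthesis, were at 98.6% and 94.2% (FDRs 0.902 and 0.429).

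Compared per kilobase of gene length, *CHS* was the most abundant of the 10 RNAs in wild type at 113 ± 23.6 CPM per kb (SD, n = 3), 71.9 times the level of *MYB111* at 1.57 ± 0.234 CPM per kb. *UGT89C1* (32.8 ± 6.10 CPM per kb), *FLS1* (28.9 ± 5.04), *CHI* (27.2 ± 3.54) and *F3H* (24.4 ± 3.96) followed, and neighbours in this order overlapped between libraries. *DFR* (10.5 ± 3.19), *LDOX* (8.08 ± 1.97), *F3'H* (5.92 ± 1.44) and *MYB12* (4.28 ± 1.48) came next, again with overlapping neighbours. Gaps without overlap lay between *CHS* and *UGT89C1*, between *F3H* and *DFR*, and between *MYB12* and *MYB111*. In *prp40c-1* the order was the same except for *UGT89C1*, which stood at rank 5 with 19.9 ± 1.92 CPM per kb, beside *FLS1* (23.6 ± 4.39), *CHI* (22.8 ± 2.14) and *F3H* (21.9 ± 3.59), all 3 of which its libraries overlapped. With the exon length of the reference annotation *CHI* came to 19.05 CPM per kb in the mutant, below *UGT89C1*. The place of *UGT89C1* also rests on reads that cannot be told apart from those of its opposite locus, and over its own 669 bases the difference of counts gave 21.8 ± 4.23 CPM per kb in wild type and 12.4 ± 2.81 in the mutant (SD, n = 3), below *FLS1*, *CHI* and *F3H* in the mean of either genotype. The same limit holds for *F3H* and AT3G51238.

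Most of the 10 genes were at their lowest in the same library of a genotype. Replicate 3 was the lowest wild-type library for 9 of the 10 genes, all but *MYB111*, and the lowest mutant library for 9 of the 10, all but *MYB12*. It was the lowest in both genotypes for 8 of the 10, and for 11.5% of all genes tested. The same held for 5 of 11 tested anthocyanin and proanthocyanidin genes, 3 of 7 other flavonol genes and 4 of 20 tested regulators. In the sinapate and lignin branch it held for 2 of 9 genes, and in the phenylpropanoid entry for 1 of 8. The SD of log2 CPM between libraries of a genotype had a median of 0.273 over the 10 genes and of 0.14 over all genes tested. That median was 0.339 for the anthocyanin and proanthocyanidin genes, 0.154 for the regulators and 0.151 for the other flavonol genes. It was 0.107 for the phenylpropanoid entry and 0.0882 for the sinapate and lignin branch. Among the 10 genes, the ratio of the highest to the lowest library of a genotype was largest for *MYB12* in wild type, at 1.94, and for *F3'H* in the mutant, at 1.97. These replicates carry the same number in both genotypes, but the labels do not say that a number marks a shared batch, and the part of any such batch in the pattern was not tested.

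**Figure D3:**
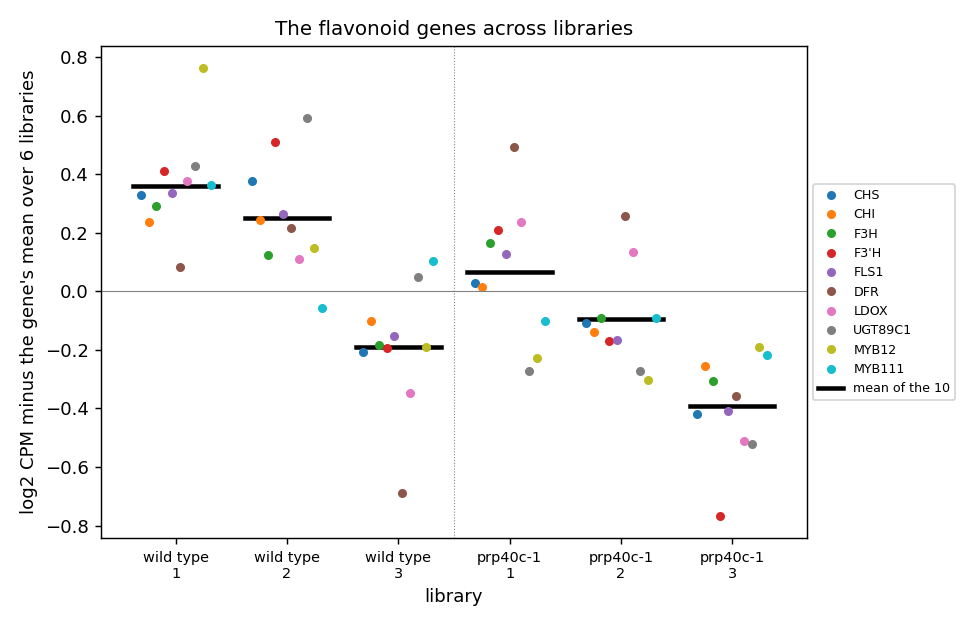
Log2 CPM of each of the 10 genes less its own mean over the 6 libraries (vertical axis), by library, with the mean of the 10 genes as a black line per library. The mean was lowest in replicate 3 of each genotype, at -0.19 for wild type and -0.39 for the mutant, and highest in wild-type replicate 1 at 0.36.

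The mean profile of the 10 genes over the 6 libraries served to find the genes most like it. The likeness was the root mean square difference of centred log2 CPM, with no test. Among tested genes outside the lists, the closest were *WRKY9*, a WRKY transcription factor (0.0381), AT2G41150 (0.0414), the glycosyltransferase gene *UGT73B4* (0.0510), the MYB gene *RAX2* (0.0530) and the cation/proton exchanger gene *CHX16* (0.0559), against a median of 0.303 for all such genes. The members themselves lay between 0.0423 for *FLS1* and 0.324 for *DFR*, and *UGT89C1* and *MYB12* were at 0.238 and 0.237. Each member is part of the mean it is set against, so these values cannot be compared directly with those of outside genes.

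Because most genes were low in the same libraries, each was also set against *FLS1* in the same library, as a ratio of counts, a comparison added after the values had been seen. Relative to *FLS1*, *UGT89C1* had ratios of 1.11, 1.31 and 1.20 in wild type and 0.791, 0.968 and 0.964 in the mutant, all 3 below wild type. *DFR* had ratios of 0.327, 0.377 and 0.269 in wild type and 0.502, 0.523 and 0.404 in the mutant, all 3 above wild type. *F3H* had 0.868, 0.814 and 0.879 against 0.920, 0.943 and 0.962, also without overlap but over a smaller distance. Each of these 3 gave p = 0.1 in an exact permutation test (two-sided), the smallest p that 3 against 3 can give, and 0.3 after adjustment over the 9 ratios. On the log2 scale the differences were -0.41 for *UGT89C1*, 0.56 for *DFR* and 0.14 for *F3H*. The ratios of *CHS*, *CHI*, *F3'H*, *LDOX*, *MYB12* and *MYB111* overlapped between genotypes, and their log2 differences lay between -0.19 and 0.20. Of all other genes tested with counts in every library, 12.0% had a higher ratio to *FLS1* without overlap and 0.964% a lower one. *FLS1* itself had a log2 fold change of -0.29 (FDR 0.174), and its lower counts raise every ratio in the mutant. Scaled to library size, *DFR* had a log2 fold change of 0.26 (FDR 0.494) and *F3H* one of -0.15 (FDR 0.484).

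**Figure D4:**
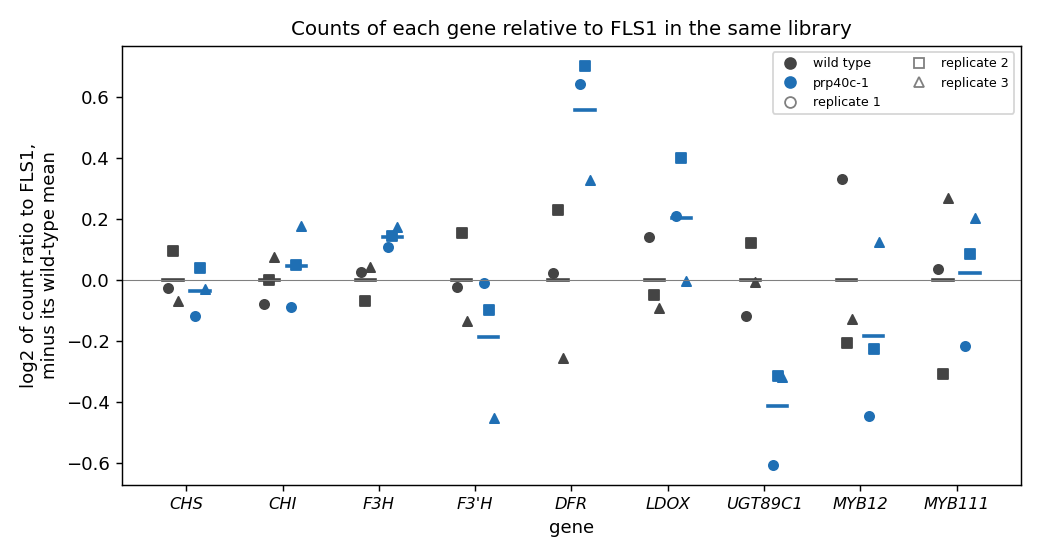
Log2 ratio of the counts of each gene to those of *FLS1* in the same library, less the wild-type mean of that ratio (vertical axis), for 9 genes, with the mean per genotype as a line. In *prp40c-1* (blue) *UGT89C1* lies lower by 0.41 on average and *DFR* higher by 0.56, and both are without overlap with wild type (gray). The log2 fold change of *FLS1* itself was -0.29.

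Spliced junction reads gave another count of the transcripts for 8 of the 10 genes, those with at least 1 intron for which the junction table holds a spliced count. Their sums were lower in the mutant for 6 of the 8 genes and overlapped between genotypes in all 8, where 12.5% of all genes with such counts were lower and 12.9% higher without overlap. *DFR* had 346, 402 and 218 spliced reads in wild type and 477, 406 and 240 in the mutant, 123% of wild type after scaling. *F3'H* had 112, 114 and 55 against 110, 115 and 53, which was 104.5% of wild type where its gene counts gave 72.6%, and *MYB12* had 89.0% where its gene counts gave 69.1%. *CHS* had 1219, 1243 and 890 against 885, 930 and 665, which was 79.1%, and *FLS1* had 431, 388 and 327 against 367, 270 and 205, which was 78.3%. *MYB111* had 18, 12 and 12 against 12, 7 and 6, the lowest share of the 8 genes at 63.3%, from few reads. No gene came below p = 0.2 in the exact permutation test, or below 0.6 after adjustment over the 8 genes. The smallest p that 3 against 3 can give is 0.1, so this test could not have passed any gene at 0.05.

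Intron retention was measured by reads that cross an exon-intron boundary, set against spliced reads of the same intron. Of the 13735 introns tested over all genes, 0 (0%) were called by edgeR (FDR below 0.15 and log2 change beyond 0.58), while 1455 had an unadjusted p below 0.05, of which 461 (3.36% of those tested) had less retention in the mutant. DESeq2 called 118 introns, 0.859% of the same set. The authors applied edgeR's exact test to reads counted within each intron, another measure and test, so these numbers cannot be set against theirs. Only 3 introns of the 10 genes had enough reads to be tested, the first and second introns of *FLS1* and the second of *F3'H*, and none was called by either tool. Both *FLS1* introns reached the required mean of 5 boundary reads in wild type only, the genotype in which these reads were more frequent. Their p-values therefore serve as description, and no conclusion is drawn from them. The *FLS1* introns are printed here, 5′ to 3′ on the plus strand with the splice-site dinucleotides in capitals, because they gave the lowest p-values.
FLS1 first intron (chr5:2804476-2804546): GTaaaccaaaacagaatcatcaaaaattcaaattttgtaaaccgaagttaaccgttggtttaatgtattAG
FLS1 second intron (chr5:2804875-2804959): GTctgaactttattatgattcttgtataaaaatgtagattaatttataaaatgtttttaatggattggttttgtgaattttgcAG
The first intron, of 71 bases, had 6, 12 and 3 boundary reads in wild type beside 146, 152 and 151 spliced reads. In *prp40c-1* it had no boundary read in any library beside 143, 123 and 60 spliced reads. Retention came to 2.27 ± 1.42% in wild type (SD, n = 3), and 0 reads over the 3 mutant libraries allow a share of up to 0.458%, which covers counting error only. The unadjusted p was 0.00388 and the FDR 0.340 by edgeR, and the FDR was 0.166 by DESeq2. The second intron, of 85 bases, had 12, 24 and 12 boundary reads beside 285, 236 and 176 spliced reads in wild type, and 4, 5 and 0 beside 224, 147 and 145 in the mutant. Retention came to 3.40 ± 1.39% in wild type and 0.852 ± 0.837% in the mutant (SD, n = 3). By edgeR the log2 change was -1.97 ± 0.830 (SE), with an unadjusted p of 0.0363 and an FDR of 0.440. *F3'H* had 12, 9 and 0 boundary reads at its second intron in wild type and 8, 2 and 7 in the mutant, beside 10 to 32 spliced reads, which left its log2 change of -0.37 well within its SE of 1.17.

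**Figure D5:**
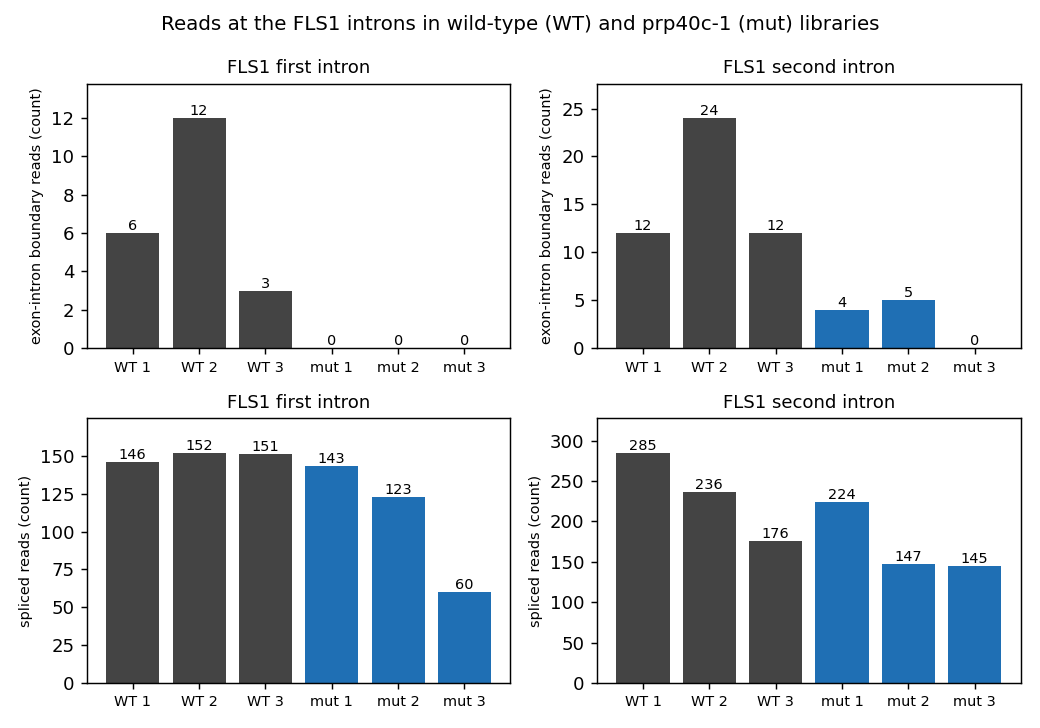
Boundary reads (top) and spliced reads (bottom) at the first and second *FLS1* introns, as counts per library, with each bar a library of wild type (gray) or *prp40c-1* (blue). The mutant libraries have 0 boundary reads at the first intron and 0 to 5 at the second, where wild type has 3 to 12 and 12 to 24.

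The other introns of the 10 genes were not tested, those with a spliced count because their boundary reads were too few and the rest because the junction table holds no spliced count for them. Among the latter, a stretch of *FLS1* classed there as a retained intron had 111 to 240 reads a library at one boundary and 2 to 10 at the other, one of *F3H* had 4 to 13 and 34 to 47, and an intron of *LDOX* had 8 to 23 and 0 to 3. *CHS*, the most abundant transcript, had 3, 8 and 3 boundary reads beside 1219, 1243 and 890 spliced reads in wild type and 2, 1 and 0 beside 885, 930 and 665 in the mutant. Retention came to 0.204 ± 0.104% and 0.0555 ± 0.0564% (SD, n = 3). *F3H* has no spliced count at any intron, and *UGT89C1* has no intron.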

How the data were processed

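The authors purified poly(A) RNA from 3 biological samples of each genotype, prepared TruSeq libraries, mapped the reads to TAIR10 with TopHat2 2.1.1 and deposited raw counts per gene and per junction, made with custom R scripts. Gene counts are not normalized. Gene lengths (effective length in bases) were deposited in another column. Use of strand and treatment of reads that match several loci are not given in the sources used here. The authors' pooled intron ratios (2 columns) were not used.

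The quasi-likelihood test of edgeR 4.0.16 (R 4.3.3), with TMM scaling, no covariates and Benjamini-Hochberg adjustment, was run on every gene whose mean count reached 10 in either genotype. For introns, an interaction term (read type by genotype) was tested where spliced reads averaged 5 or more in both genotypes and boundary reads averaged 5 or more in either. Alternatives included DESeq2 1.42.0, other scalings and filters, a replicate block and left-out libraries. The scripts were tested on simulated data. Libraries of a genotype differed by more than sampling noise (chi-square divided by its degrees of freedom, 6.70 to 17.5).

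The 10 genes and the lists were chosen with earlier results of these data known. All 10 genes are named. Of the other lists, called genes are named, and of the rest at most 3 each with the highest mean CPM. Outside this rule *UGT78D1*, *LBD38*, *UGT84A2* and *C3'H* (FDR) and *BAN* (low counts) were named after their values were seen. So were *PAP1*, *EGL3*, *CPC*, *HY5* and *MYB4* (lower without overlap). The 5 most alike genes had the smallest root mean square difference. Sequences came from RefSeq TAIR10.1, in which all 94112 junctions of the files fell on splice-site dinucleotides. CPM per kb used the deposited length.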

Additional observations from a re-analysis of the deposited data

How the results depend on the processing

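*UGT89C1* was the only one of the 10 genes called under DESeq2 size factors, the DESeq2 Wald test, the edgeR exact test, no filter on low counts, a filter of 1 CPM in 3 libraries and the replicate block, and over the left-out libraries 1 to 3 genes were called. The scaling alternatives moved the median of all genes by less than 0.01 on the log2 scale. Single libraries turned the sign of genes that were not called: with 1 library left out, the log2 fold change ranged from -0.26 to 0.11 for *LDOX*, -0.081 to 0.13 for *CHIL*, -0.078 to 0.046 for *OMT1*, -0.13 to 0.0096 for *RHM1*, -0.22 to 0.00230 for *UGT75C1*, -0.13 to 0.045 for *SCPL10*, -0.13 to 0.00291 for *UVR8* and -0.080 to 0.040 for *CCoAOMT1*, and the log2 change of the second *F3'H* intron from -1.09 to 0.37. The cause was not tested. No member intron was called under any alternative. With a minimum mean of 10 reads 137 introns in all were called, but of the member introns only the second of *FLS1* was tested there (FDR 0.244). With the replicate block, without a minimum of reads and in each fit with 1 library left out, edgeR called no intron of any gene. Those fits therefore show nothing particular to the members. The wild-type ratio of *CHS* to *MYB111* per kb was 62.8 to 79.4 over its alternatives.

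The labels number replicates alike in both genotypes without saying that a number marks a shared batch. The correlations of the deviations of same-numbered libraries were -0.0318, 0.13 and -0.000386, and 2 of the 6 libraries correlated best with their own number, so the numbers were not taken as pairs. With the replicate block 819 genes were called in place of 813, 1 of the 10 genes among them in both fits, and *CHS*, *F3'H* and *FLS1* had FDRs below 0.05 within the fold threshold. Without the fold threshold 4 of the 10 genes and 11.3% of all genes passed with the block, beside 1 of the 10 and 11.2% of all genes in the same fit without it. Without the filter on low counts 2 of the 10 passed (10.5% of all genes), 6 of the 10 without wild-type replicate 3, and 3 of the 10 without mutant replicate 1 (10.7% of all genes each).

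Depth limits *MYB111*, with 54 to 92 counts a library, and every intron with few boundary reads. *DFR* and *UGT89C1* relative to *FLS1*, with 1 library left out, ranged from 0.43 to 0.67 and from -0.47 to -0.32.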
